A study of Mus musculus with 6 samples.

Results

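Immediate early genes are switched on by growth factors, hormones, stretch and stress without the need for new protein, and most of their transcripts are short-lived. Their products are mainly transcription factors, such as the AP-1, EGR, NR4A and KLF families, together with proteins that end the response, such as Zfp36, Socs3 and Nfkbia. The GADD45 proteins are small acidic proteins induced by DNA damage and growth arrest signals, and they bind the kinase MAP3K4 upstream of p38 and partners of the cell cycle such as PCNA and p21. In the heart these genes respond to adrenergic drive, load and ischaemia, and also to the handling of the tissue.

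The 34 genes described here are the rows of the deposited table whose gene name is one of 34 immediate early or Gadd45 genes, out of 54532 genes in all. Each of them was found once. They were measured in polyadenylated RNA from hearts taken at 12 weeks, in 3 Mc4r KO mice and 3 WT mice that each gave 1 library. The Mc4r KO mice were homozygous knockouts of the melanocortin-4 receptor gene, bred with their WT littermates from heterozygous parents on the C57B/6/N background and fed standard chow, so that the deletion was not limited to the heart. The study's discussion speaks of male mice and left ventricle, while the sample labels name both heart and muscle. The mice were anesthetized with tribromoethanol, killed by decapitation and the hearts washed in cold buffer before freezing, and the hour of collection is not given in the sources used here.

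Expression is given as FPKM, in which the fragments of a gene are divided by its length and by a scaling value for each library that is not its read total alone, so that levels can be compared between genes as well as between libraries. The recovered reads on genes ranged from 14691076 to 16047003 over the 6 libraries, and an FPKM between 0.176 and 0.213 stood for 3 reads on 1 kb. Mc4r itself was read 2 times in WT replicate 3 and 0 times in the other libraries, so the genotype could not be checked from it. The heart muscle markers Myh6, Tnnt2, Actc1, Tnni3, Ryr2 and Myl2 together reached an FPKM of 11819 to 12341 in WT and of 14412 to 15909 in Mc4r KO libraries. WT replicate 3 stood apart from the other WT libraries, and the results that rest on it are given with and without it. In bulk tissue, fewer cells of a type and less RNA per cell cannot be told apart.

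The groups were compared with limma on log2(FPKM + 0.1) over the 18035 genes whose mean FPKM reached 0.1, and the Benjamini-Hochberg adjusted p-values cover all of them. On this scale the changes of weakly expressed genes are understated. All 34 genes passed the filter, with mean FPKM from 0.121 for Fosb to 52.3 for Klf2. Of these, 3 passed an adjusted p under 0.05, against 0.582% of all genes tested: Gadd45b rose in the Mc4r KO mice, and Klf6 and Sik1 fell. The other 31 did not pass, and 14 of the 34 had an unadjusted p under 0.05, against 20.9% of all genes. The shares of all genes that passed were 0.41% for those higher and 0.172% for those lower in Mc4r KO. Of the 3, only Gadd45b also exceeded an absolute log2 fold change of 0.75. This limit follows the study's methods, which do not name the base of the logarithm and give another limit elsewhere. Of all genes tested, 0.46% had both an adjusted p under 0.05 and a change past this limit (0.316% higher and 0.144% lower). The median log2 fold change was -0.17 over the 34 genes and -0.011 over all genes tested, and the change was negative for 21 of the 34 genes and for 51.2% of all genes. In 10 of the 34 genes every Mc4r KO library lay below every WT library, against 12.4% of all genes tested, and in 2 every Mc4r KO library lay above, against 14.1%. With 3 mice against 3, the exact permutation test gave p = 0.1 for each of these 12 genes, the smallest p it can give.

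**Figure D1:**
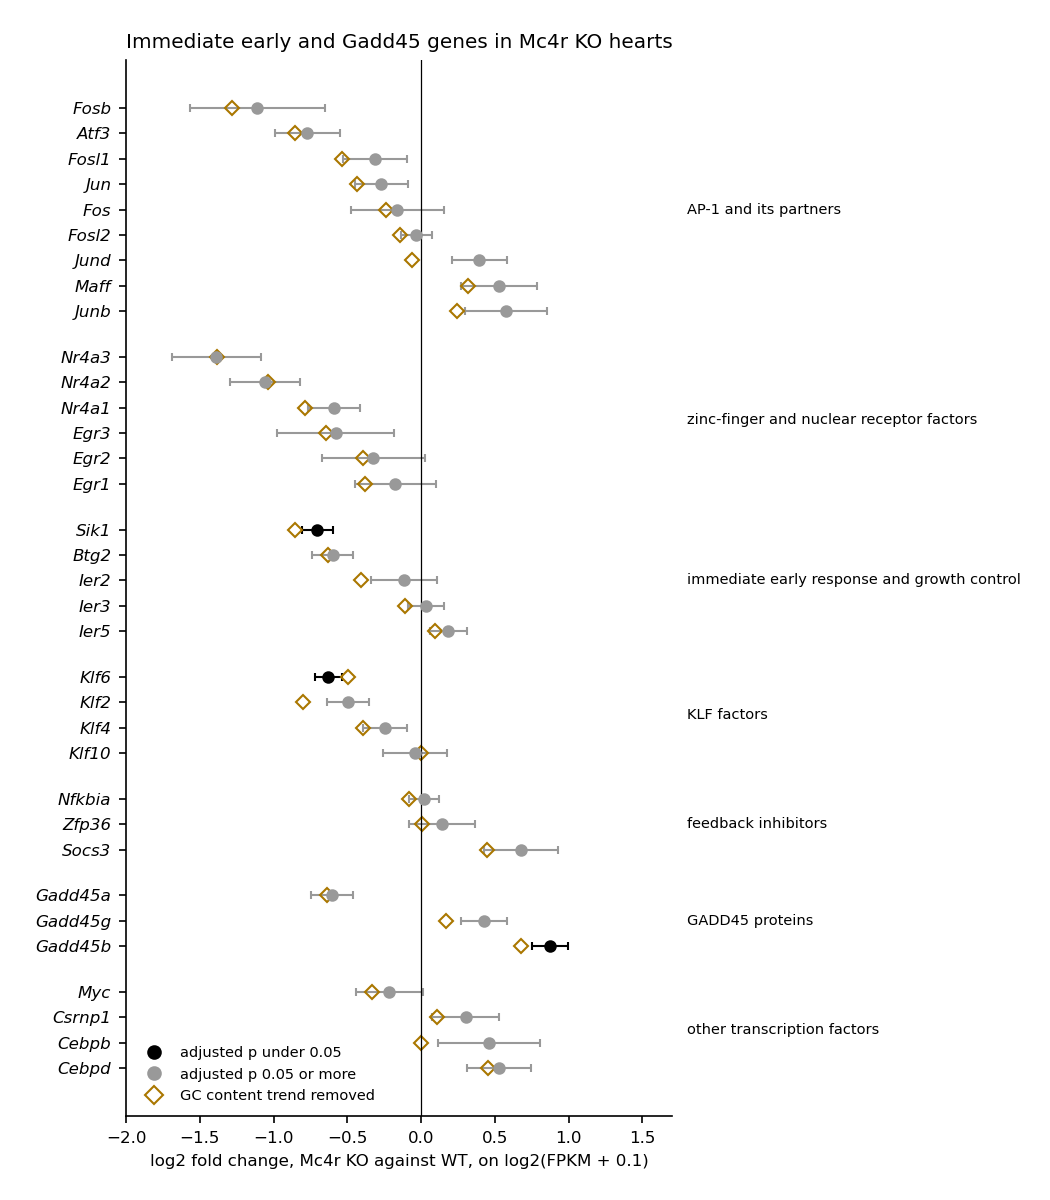
Log2 fold change of each of the 34 genes between Mc4r KO and WT mice on log2(FPKM + 0.1), with bars for the standard error and the genes grouped by role. Black points passed an adjusted p under 0.05 (Gadd45b, Klf6 and Sik1), grey points did not, and open diamonds give the value after the trend of each library against GC content was removed. The 3 NR4A genes lie to the left of 0 on both scales, and the 3 GADD45 genes lie on both sides of it.

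Of the GADD45 genes Gadd45b rose, while the values of Gadd45a were lower and those of Gadd45g higher in the Mc4r KO mice without passing the test. Gadd45b (ENSMUSG00000015312; chromosome 10, 80930073 to 80932204 of GRCm38) had an FPKM of 3.08, 3.59 and 2.99 in WT and 6.69, 5.68 and 5.57 in Mc4r KO libraries. All 3 Mc4r KO libraries were above the WT libraries, and the gap exceeded the spread of either group. The means were 3.22 ± 0.324 and 5.98 ± 0.618 (SD, n = 3 each). On the log2 scale the difference was 0.87 with a standard error of 0.12 (adjusted p = 0.043, limma). Gadd45b was also among the genes that the study measured by RT-qPCR, for which the basis of choice is not stated. Gadd45a, a p53 target that marks DNA damage and growth arrest, lies on chromosome 6 from 67035096 to 67037457. It was at 5.51, 5.76 and 4.36 in WT and at 3.21, 3.13 and 3.78 in Mc4r KO libraries, lower in each Mc4r KO mouse. Its log2 fold change was -0.61 (standard error 0.14), and it did not pass the test (adjusted p = 0.0954, limma).

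Gadd45g, which is induced by cytokines and during differentiation, lies on chromosome 13 from 51846678 to 51848468. It was at 5.62, 7.66 and 8.56 in WT and at 10.00, 9.43 and 9.56 in Mc4r KO libraries. The lowest Mc4r KO library was only slightly above WT replicate 3, and the log2 fold change of 0.42 did not pass the test (adjusted p = 0.19, limma). Within each library the ratio of Gadd45a to Gadd45b, which no scaling between libraries can change, was 1.79, 1.60 and 1.46 in the WT mice and 0.480, 0.552 and 0.679 in the Mc4r KO mice. Gadd45a was thus the more abundant of the pair in every WT heart and the less abundant in every Mc4r KO heart (exact permutation p = 0.1). The ratio was chosen after the values were seen. The summed FPKM of the 3 genes was 15.7 ± 1.41 in the WT mice and 19.0 ± 0.836 in the Mc4r KO mice (SD, n = 3 each). A transcript on the opposite strand, E230016M11Rik, overlaps 19.1% of the exonic sequence of Gadd45a, and it had a mean FPKM of only 0.17. The call of Gadd45b was lost without any one library other than WT replicate 3 (adjusted p from 0.0912 to 0.157), and it was kept without WT replicate 3 (adjusted p = 0.0196, limma). The sign of each of the 3 genes was the same under all 18 alternatives, but not the size. With the mitochondrial share of each library as a covariate Gadd45g was at 0.06 and Gadd45a at -0.36 on the log2 scale, and with the GC content trend removed Gadd45g was at 0.17.

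The sequences upstream of the 3 genes are shown because their differences have opposite signs. They are the RefSeq promoters of GRCm38.p6, up to the first base that GENCODE M21 places in an exon, with TATAAA and CACGTG in capitals. Gadd45a is at chr6:67037458-67037657 on the minus strand, Gadd45b at chr10:80929841-80930072 on the plus strand and Gadd45g at chr13:51846425-51846674 on the plus strand.

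Gadd45a: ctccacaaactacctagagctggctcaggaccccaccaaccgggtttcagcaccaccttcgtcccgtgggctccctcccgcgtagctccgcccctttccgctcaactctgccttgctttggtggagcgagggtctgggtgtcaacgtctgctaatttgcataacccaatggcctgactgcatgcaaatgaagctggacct
Gadd45b: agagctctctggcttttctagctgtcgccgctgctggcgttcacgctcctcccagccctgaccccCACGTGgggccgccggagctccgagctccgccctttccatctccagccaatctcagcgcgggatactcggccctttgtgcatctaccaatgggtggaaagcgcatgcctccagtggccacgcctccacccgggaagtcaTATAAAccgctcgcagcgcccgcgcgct
Gadd45g: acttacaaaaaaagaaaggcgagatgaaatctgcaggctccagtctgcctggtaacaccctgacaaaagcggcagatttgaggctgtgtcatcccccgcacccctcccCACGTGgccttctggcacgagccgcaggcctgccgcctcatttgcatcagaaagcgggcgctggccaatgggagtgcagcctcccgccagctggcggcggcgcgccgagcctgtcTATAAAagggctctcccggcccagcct

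Gadd45b and Gadd45g each held 1 TATAAA and 1 CACGTG in these letters, and Gadd45a held neither. The stretch shown for Gadd45a ends before the positions of these TATAAA matches, but its full window of 300 bases held neither motif. Other motifs were also searched, and GCGNGGGCG was found in Gadd45b but not in Gadd45a or Gadd45g. Over all 32851 promoter windows of 300 bases in the RefSeq table, searched on both strands, 13.6% held TATAAA and 7.15% held CACGTG. These matches are a description of the letters and not evidence of a site.

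All 3 NR4A genes had lower values in every Mc4r KO library than in any WT library, and none of them passed the test. They encode orphan nuclear receptors, Nr4a1 (Nur77), Nr4a2 (Nurr1) and Nr4a3 (Nor1), which are induced by cyclic AMP and adrenergic signals and act on metabolic genes in muscle. Nr4a1 was the most abundant, at 19.1, 13.3 and 18.4 in WT and 12.9, 11.4 and 9.20 in Mc4r KO libraries. The highest Mc4r KO library was close below the lowest WT library, and the difference was -0.59 on the log2 scale with a standard error of 0.18 (adjusted p = 0.133, limma). Nr4a3 was at 3.09, 1.90 and 2.28 in WT and at 1.15, 0.989 and 0.521 in Mc4r KO libraries, from between 163 and 261 reads and between 50 and 107 reads per library. Every Mc4r KO library was well below the WT libraries, and the log2 fold change of -1.39 had a standard error of 0.30 (adjusted p = 0.0847, limma). It was the largest in size among the 34 genes on log2(FPKM + 0.1), but with voom and with a pseudocount of 0.01 that of Fosb was larger (-2.31 and -2.16). Nr4a2 was at 0.734, 0.943 and 0.796 against 0.444, 0.276 and 0.322, which is -1.06 on the log2 scale with a standard error of 0.23 (adjusted p = 0.0871, limma). It rests on 42 to 55 reads per WT library and 17 to 28 per Mc4r KO library.

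None of the 3 NR4A genes passed the adjusted threshold with limma on FPKM, where the unadjusted p was under 0.05 for all 3. With limma voom on the recovered reads Nr4a3 (adjusted p = 0.0192) and Nr4a2 (adjusted p = 0.0428) passed, Nr4a1 did not (adjusted p = 0.0579), and 4.58% of all genes tested passed. The log2 fold changes of the 3 genes stayed negative under all alternatives that gave a value, 18 for Nr4a1 and Nr4a3 and 17 for Nr4a2. The summed FPKM of the family was 22.9, 16.2 and 21.5 in WT and 14.5, 12.6 and 10.0 in Mc4r KO libraries. WT replicate 3, which joined the Mc4r KO libraries for many other genes, stayed with the WT libraries for all 3 NR4A genes.

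Because the 3 NR4A genes lay lower together, their upstream sequences are shown, with TGACG, the core of the site bound by CREB, in capitals (CGTCA where it is on the other strand). They are RefSeq promoters of GRCm38.p6 at chr15:101266596-101266845 for Nr4a1, chr2:57124004-57124253 on the minus strand for Nr4a2 and chr4:48045055-48045152 for Nr4a3, the last again up to the first exonic base in M21.

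Nr4a1: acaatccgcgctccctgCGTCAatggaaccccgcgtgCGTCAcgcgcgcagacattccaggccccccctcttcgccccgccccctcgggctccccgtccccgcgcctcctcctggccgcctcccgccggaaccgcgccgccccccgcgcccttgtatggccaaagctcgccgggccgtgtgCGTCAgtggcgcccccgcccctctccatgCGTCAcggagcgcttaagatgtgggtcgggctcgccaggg
Nr4a2: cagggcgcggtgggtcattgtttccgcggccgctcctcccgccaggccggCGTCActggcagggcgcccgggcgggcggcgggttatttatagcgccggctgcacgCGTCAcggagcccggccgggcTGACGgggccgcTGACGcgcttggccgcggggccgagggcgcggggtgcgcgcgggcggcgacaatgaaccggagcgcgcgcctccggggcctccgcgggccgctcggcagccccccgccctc
Nr4a3: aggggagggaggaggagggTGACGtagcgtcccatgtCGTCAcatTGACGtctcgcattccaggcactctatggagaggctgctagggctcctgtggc

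Each NR4A promoter held 4 copies of TGACG within its window of 300 bases, 1 of those of Nr4a3 lying past the stretch shown. Of all 32851 promoter windows, 0.231% held at least 4 copies. Among the 26 of the 34 genes that have a promoter in the table, 14 held at least 1 copy in 1 of their windows, against 23.1% of all 27025 genes in the table, and only the NR4A genes held 4. Of these 14 genes, Cebpb, Csrnp1, Junb and Maff had a positive log2 fold change in the Mc4r KO mice and the others a negative one. The full palindrome TGACGTCA, which contains TGACG, was found in Btg2 and Maff and in 2.03% of all genes. The EGR site GCGNGGGCG was found in 11 of the 26 genes, among them Nr4a1, Nr4a2, Klf2, Btg2 and Gadd45b, and in 6.27% of all genes. The CArG box of SRF was found in Egr2 and Zfp36 and in 1.81% of all genes, and TGANTCA, the AP-1 site, in Csrnp1 and in 8.97% of all genes. The motifs were chosen as those known for this class of genes, and no match says only that the letters are not in this window. A match is likewise a description of the letters and not evidence of a site, and its part in the expression changes was not tested.

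The EGR genes, zinc-finger factors named for early growth response, all had a negative log2 fold change, and each overlapped between the groups. Egr1 ranged from 3.34 to 4.66 in the WT libraries, and of the Mc4r KO libraries 1 lay above, 1 within and 1 below this range (log2 fold change -0.18, adjusted p = 0.756, limma). Egr2 and Egr3 stayed below an FPKM of 0.7 in every library, with log2 fold changes of -0.32 and -0.58, neither past the test. Thus all 6 zinc-finger and nuclear receptor genes had a negative log2 fold change (median -0.59), and the groups were separate only in the 3 NR4A genes.

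Sik1 fell in the Mc4r KO mice. It encodes salt-inducible kinase 1, which is induced by cyclic AMP and phosphorylates the CREB coactivators and class II histone deacetylases. On chromosome 17 from 31844248 to 31855792, it was at 11.9, 14.6 and 14.3 in WT and at 7.86, 8.52 and 8.53 in Mc4r KO libraries. The Mc4r KO libraries lay close together and clearly below the WT libraries, with a mean of 8.30 ± 0.386 in place of 13.6 ± 1.51 (SD, n = 3 each). The difference on the log2 scale was -0.70 with a standard error of 0.11 (adjusted p = 0.0486, limma). Btg2, an antiproliferative protein that acts on messenger RNA decay, was at 22.7, 17.1 and 15.7 against 12.3, 11.7 and 12.1. Its log2 fold change of -0.60 did not pass (adjusted p = 0.0949, limma), although every Mc4r KO library was below every WT library. The other genes of this group overlapped between the groups. Ier3, an inhibitor of cell death, was at 21.1, 23.0 and 25.4 in the WT and 27.3, 23.0 and 21.0 in the Mc4r KO libraries, and Ier2 and Ier5 had log2 fold changes of -0.12 and 0.18. Sik1 kept an adjusted p under 0.05 after the GC content trend was removed (adjusted p = 0.0197, limma) and without WT replicate 3 (adjusted p = 0.024). It did not pass without any one other library (adjusted p from 0.101 to 0.176) or with the mitochondrial share of each library as a covariate (-0.82, adjusted p = 0.231, limma).

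Among the KLF genes, zinc-finger factors that include the shear-stress regulators Klf2 and Klf4 of endothelium, Klf6 fell in the Mc4r KO mice. Klf6 (chromosome 13, 5861482 to 5870394), a factor of tissue injury and repair, was at 26.4, 22.7 and 23.9 in WT and at 14.8, 15.4 and 16.8 in Mc4r KO libraries. The groups were far apart for their spread, with means of 24.3 ± 1.89 and 15.7 ± 1.07 (SD, n = 3 each). The difference on the log2 scale was -0.63 with a standard error of 0.09 (adjusted p = 0.0479, limma). Klf2, the most abundant of the 34 genes, was at 57.8, 57.6 and 67.8 against 46.3, 35.2 and 49.1. Every Mc4r KO library was below every WT library, but the log2 fold change of -0.50 did not pass (adjusted p = 0.124, limma). Klf4 and Klf10 overlapped between the groups, with log2 fold changes of -0.25 and -0.04. The 6 endothelial markers, among them Pecam1 and Cdh5, summed to an FPKM from 156 to 191 in the WT libraries and from 169 to 200 in the Mc4r KO libraries, with overlap between the groups. Their part in the values of Klf2 was not tested. The 6 fibroblast markers summed to 185 to 189 in the WT libraries and to 136 to 155 in the Mc4r KO libraries, with no overlap. Of these 6 markers 2 had a positive and 4 a negative log2 fold change, and 0 passed an adjusted p under 0.05. Their part in the lower Klf6 was not tested. Klf6 kept an adjusted p under 0.05 without WT replicate 3 (adjusted p = 0.0198, limma). It did not pass without any one other library (adjusted p from 0.109 to 0.189) or with the GC content trend removed (adjusted p = 0.0661). With the mitochondrial share of each library as a covariate it did not pass either (-0.59, adjusted p = 0.275, limma).

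**Figure D2:**
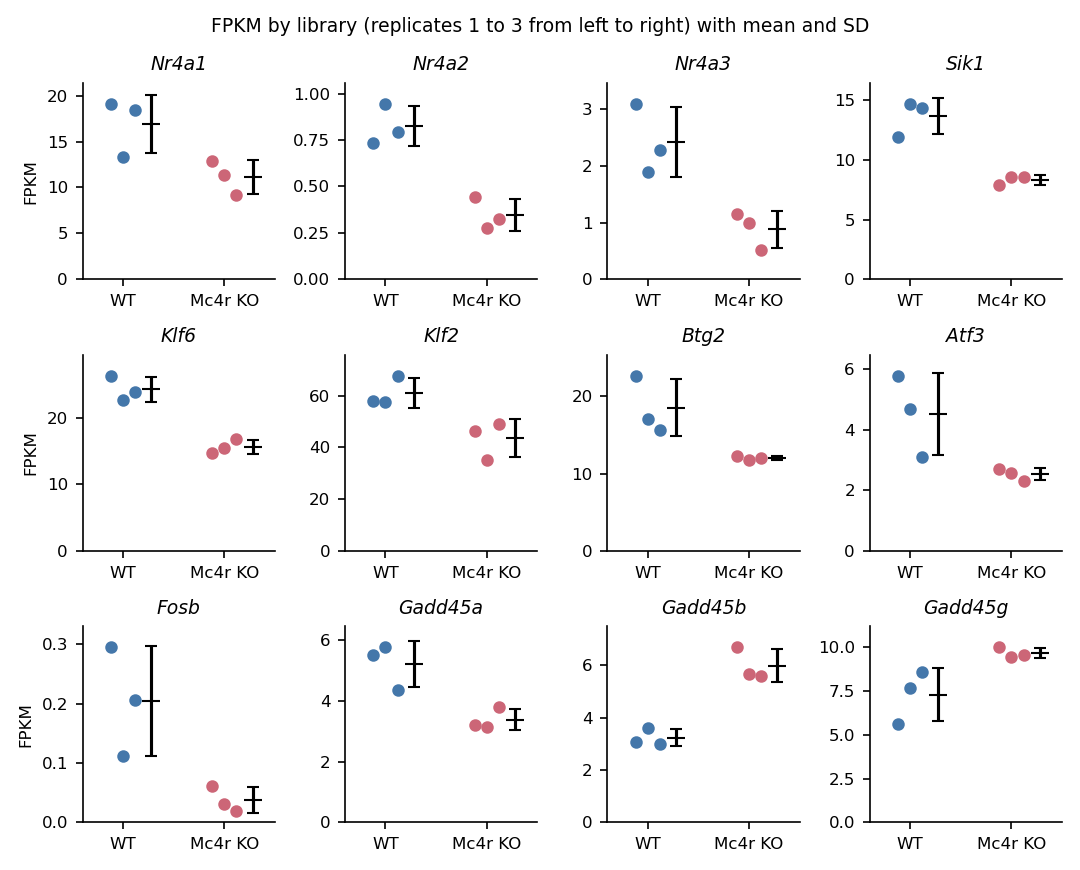
FPKM of 12 genes in each library, blue for WT and red for Mc4r KO, with the mean and SD (n = 3) in black beside the points; each axis starts at 0. The 12 genes were drawn because their WT and Mc4r KO libraries do not overlap, as was so in 26.4% of all genes tested. The Mc4r KO libraries lie above the WT libraries only in Gadd45b and Gadd45g.

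Of the 9 AP-1 genes and their partners none passed the test, 3 had a positive and 6 a negative log2 fold change, and 2 had an unadjusted p under 0.05. Fosb and Atf3 were lower in every Mc4r KO library. Atf3, a stress-induced repressor of the ATF family, was at 5.79, 4.69 and 3.11 in WT and at 2.72, 2.57 and 2.31 in Mc4r KO libraries. WT replicate 3 was much nearer to the Mc4r KO libraries than the other 2 were, and the log2 fold change of -0.77 did not pass with it (adjusted p = 0.124) and did without it (-1.01, adjusted p = 0.0149, limma). Fosb was counted with 26, 10 and 22 reads in the WT and with 6, 3 and 2 reads in the Mc4r KO libraries, for an FPKM of at most 0.295, so that its log2 fold change of -1.11 rests on few reads (adjusted p = 0.23, limma). Fos itself, the classical partner of Jun, was low, with 1.57, 1.33 and 3.30 in WT and 1.84, 1.46 and 1.83 in Mc4r KO libraries. The highest value was that of WT replicate 3, and the groups overlapped (adjusted p = 0.813, limma).

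Within the Jun family the log2 fold changes differed in sign. Jun was at 21.3, 29.7 and 17.9 against 18.5, 17.7 and 19.7. Junb, which often restrains Jun, was at 5.21, 4.45 and 9.88 in WT and at 10.2, 8.44 and 8.94 in Mc4r KO libraries. Jund, which opposes growth of heart muscle, was at 14.2, 15.4 and 23.3 against 24.1, 23.2 and 20.7. In both genes WT replicate 3 lay within the Mc4r KO range and the other 2 WT libraries lay below it. None of the 3 passed with all libraries (adjusted p = 0.435, 0.29 and 0.279, limma). Without WT replicate 3, Junb (log2 fold change 0.92, adjusted p = 0.0144) and Jund (0.61, adjusted p = 0.0183, limma) passed. The summed FPKM of the family was 47.1 ± 5.60 in the WT mice and 50.5 ± 2.01 in the Mc4r KO mice (SD, n = 3 each; exact permutation p = 0.6). Part of the exonic sequence is shared with genes of the opposite strand, 52.6% for Jund, 57.2% for Fosl1 and 7.52% for Junb, and the counting is not stated to use strand. The partner of Jund, Gm11175, was listed at 0 in every library, while those of Fosl1 and Junb, Ccdc85b and Prdx2, had mean FPKM of 54.6 and 80.1. Fosl1, Fosl2 and Maff overlapped between the groups, with log2 fold changes of -0.31, -0.03 and 0.53.

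The C/EBP factors of the acute-phase response also had WT replicate 3 above the other WT libraries. Cebpb was at 15.0, 18.8 and 42.0 in WT and at 33.2, 29.3 and 31.9 in Mc4r KO libraries. WT replicate 3 held the highest level of all 6 libraries, and the other 2 WT libraries held the lowest. Cebpd was at 5.13, 5.41 and 9.23 against 9.05, 8.72 and 9.87, again with WT replicate 3 among the Mc4r KO libraries. Neither passed with all libraries (log2 fold changes 0.46 and 0.53, adjusted p = 0.496 and 0.23, limma), and both passed without WT replicate 3 (0.90 and 0.79, adjusted p = 0.0136 and 0.0108). Genes of the opposite strand overlap 20.7% of the exonic sequence of Cebpb (Tmem189, mean FPKM 6.28) and 15% of that of Cebpd (Spidr, 0.43). Csrnp1 had a log2 fold change of 0.30 and Myc, which was below an FPKM of 1.2 in every library, one of -0.22.

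Of the feedback inhibitors, Socs3, which blocks signalling by interleukin-6 receptors, was at 1.08, 1.20 and 2.01 in WT and at 2.79, 1.91 and 2.18 in Mc4r KO libraries. Zfp36 (tristetraprolin), which destabilizes cytokine transcripts, was at 8.03, 8.11 and 14.4 against 11.1, 9.92 and 11.5. WT replicate 3 was within the Mc4r KO range for Socs3 and above it for Zfp36. Both passed only without that library (adjusted p = 0.0354 and 0.0442, limma). Nfkbia, the inhibitor of NF-kappaB and the most abundant of the 3, was at 30.0, 30.6 and 32.6 against 33.2, 27.7 and 34.2, and its log2 fold change of 0.02 had a standard error of 0.10.

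Thus without WT replicate 3 the number of genes with an adjusted p under 0.05 went from 3 to 12 of the 34, 7 of them higher and 5 lower in Mc4r KO, against 10.3% of all genes tested in that fit. Apart from Gadd45b, Klf6 and Sik1 these were Atf3, Btg2 and Gadd45a, which were lower, and Cebpb, Cebpd, Junb, Jund, Socs3 and Zfp36, which were higher. Without any one of the other 5 libraries, limma passed 0 of them, with 10 to 12 at an unadjusted p under 0.05. Over all genes, 0.039% to 0.0778% passed in these fits. Of the 17935 to 18080 genes tested there, 2521 to 2952 had an unadjusted p under 0.05. WT replicate 3 lay nearer to the Mc4r KO mean than to the other WT libraries in 18 of the 34 genes (52.9%), and in 54.0% of all genes tested, so this was no property of the 34 genes. The corresponding share of the 34 genes was 26.5% for WT replicate 1 and 17.6% for WT replicate 2, against 34.8% and 37.8% of all genes.

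**Figure D3:**
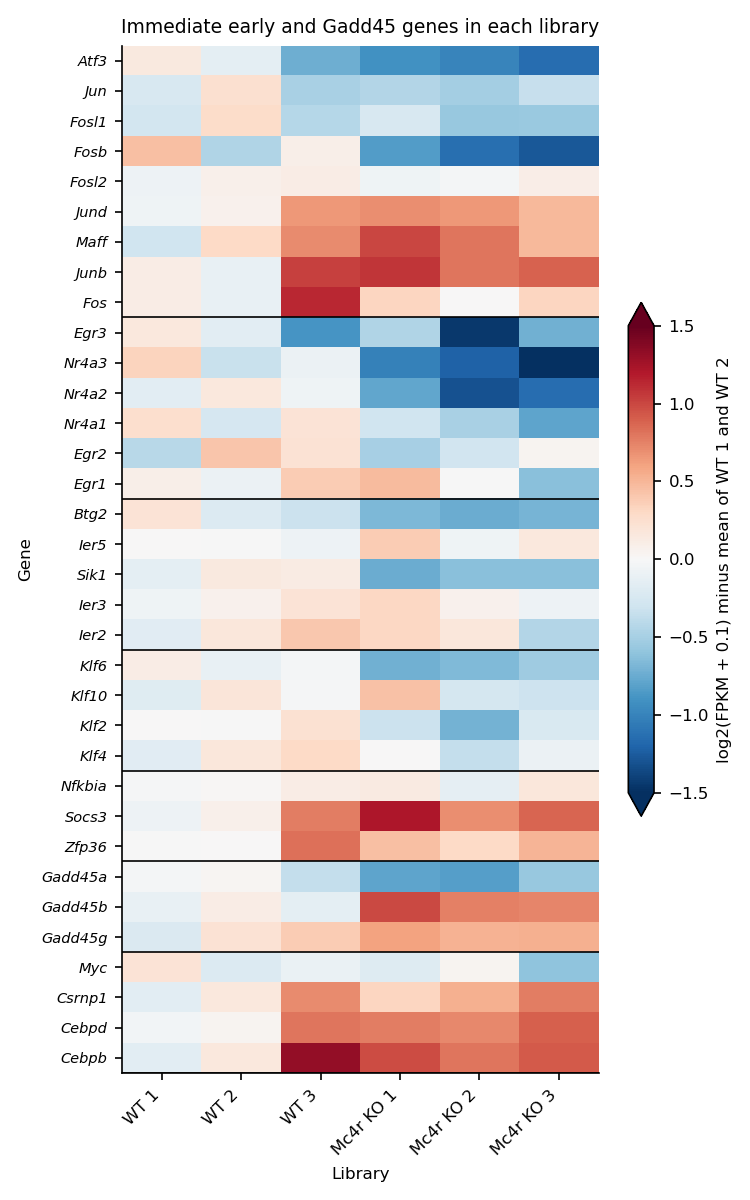
Level of each of the 34 genes in each library as the difference on log2(FPKM + 0.1) from the mean of WT 1 and WT 2, red for higher and blue for lower; lines separate the role groups, and genes within a group are ordered by WT 3. WT 3 is red together with the Mc4r KO libraries in Cebpb, Cebpd, Junb, Jund, Socs3 and Zfp36, while in the NR4A genes, Sik1 and Klf6 all 3 Mc4r KO libraries are blue.

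Several measures of the libraries moved with this pattern. The mitochondrial transcripts made up 59.3% and 57.4% of the FPKM in WT replicates 1 and 2, 47.1% in WT replicate 3 and from 43.0% to 46.6% in the Mc4r KO libraries. This share was higher in every WT library than in any Mc4r KO library, so a fit with both share and genotype separates them poorly. With this share as a covariate the log2 fold changes of Junb, Jund, Cebpb, Cebpd, Socs3 and Zfp36 turned negative. They ran from -0.69 for Cebpb to -0.04 for Socs3, and none passed (adjusted p from 0.237 to 0.969, limma). The log2 fold change of Gadd45b was 0.95 and did not pass (adjusted p = 0.237, limma). In this fit 0.0111% of all genes tested passed. The GC content of the transcripts outside the mitochondrial chromosome, weighted by their reads, was 49.6% and 49.9% in WT replicates 1 and 2, 50.3% in WT replicate 3 and 50.5% in each Mc4r KO library. Over the 11288 genes of known GC content whose mean FPKM reached 1, the median log2 fold change ran from -0.19 at a GC content of up to 42% to 0.26 above 58%. Over the same bands the difference of WT replicate 3 from the other 2 WT libraries ran from -0.21 to 0.29. The 34 genes are rich in GC, with a median of 54.5% against 49.8% for those genes, from 42.4% in Klf6 to 67.2% in Cebpb. Across the 34 genes, Spearman's rho between GC content and log2 fold change was 0.508, and across the 11288 genes it was 0.417, where the genes share the 6 libraries and are not independent.

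With the trend of each library against GC content removed, the log2 fold change was -0.06 for Jund, 0.24 for Junb and near 0 for Cebpb, where it had been 0.39, 0.58 and 0.46. The same step left Nr4a3 at -1.38 and Nr4a2 at -1.04, moved Nr4a1 from -0.59 to -0.79 and Klf2 from -0.50 to -0.80, and lowered Gadd45b from 0.87 to 0.68 (adjusted p = 0.0816, limma). The median over the 34 genes was then -0.35, against -0.034 over all genes, and 25 of the 34 were negative. The removal of this trend was chosen after seeing the data.

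**Figure D4:**
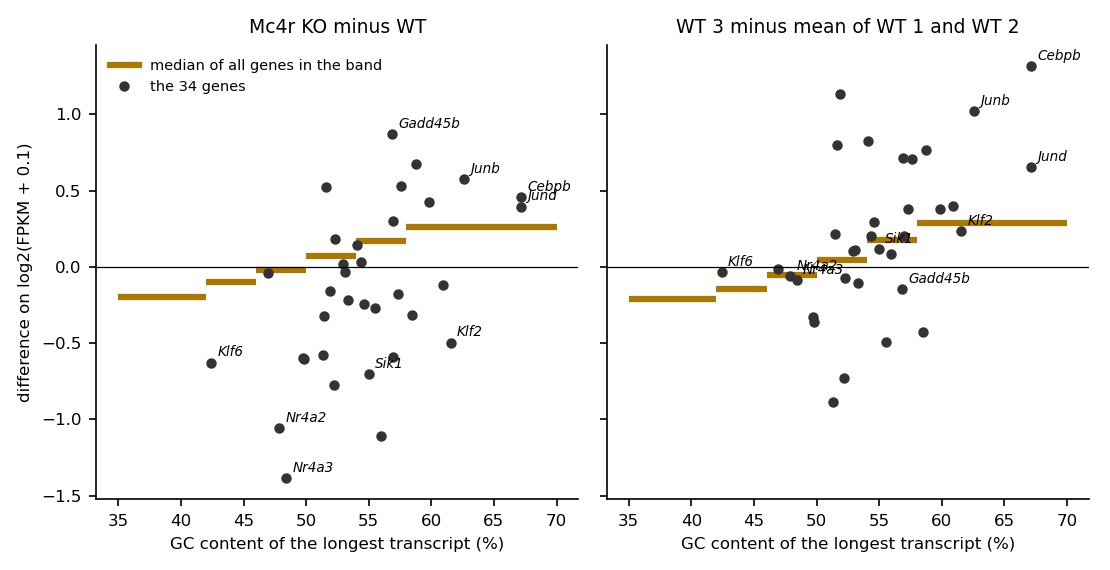
Difference on log2(FPKM + 0.1) against the GC content of the longest transcript of each of the 34 genes (points), for Mc4r KO minus WT on the left and for WT 3 minus the mean of WT 1 and WT 2 on the right. Bars give the median of all genes whose mean FPKM reached 1 in each GC band, and the outer bands are open-ended; the bars rise from left to right in both panels.

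Markers of other cells also differed between libraries. The 6 macrophage markers summed to 82.9, 76.6 and 137 in the WT libraries and to 133, 115 and 106 in the Mc4r KO libraries and, as for Cebpb, WT replicate 3 was the highest of the 6 libraries. Of these 6 markers 3 had a positive and 3 a negative log2 fold change between the groups. The 4 atrial markers (Nppa, Myl7, Myl4 and Sln) summed to 747 in WT replicate 3 and to between 6.29 and 136 in the other libraries. The 6 neutrophil markers summed to at most 15.4, with Ly6g and Cxcr2 below a mean FPKM of 0.1. The 5 red cell markers ranged from 859 to 6344 in the WT and from 620 to 1651 in the Mc4r KO libraries. Both sums were highest in WT replicate 3. The 4 atrial markers, the 4 neutrophil markers that were tested and the 5 red cell markers all had a negative log2 fold change, and 0 passed an adjusted p under 0.05. The 6 smooth muscle and pericyte markers ranged from 216 to 286 and from 188 to 280, and the 6 adipocyte markers summed to at most 0.450. The part of these cells in the levels of the 34 genes was not tested.

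The median spread between mice of 1 group was larger for the 34 genes than for all genes. Among genes whose mean FPKM reached 1, the median SD within groups on the log2 scale was 0.28 for the 29 members and 0.17 for all 11297. Over all 34 genes and all genes tested the medians were 0.29 and 0.23. Among the 29 genes it was largest for Cebpb (0.55), Fos (0.49) and Nr4a3 (0.45), and smallest for Fosl2 (0.09), Klf6 (0.10), Nfkbia (0.12), Sik1 (0.13) and Gadd45b (0.14).

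Other genes of the same pathways were examined with the same fit. Of 29 tested kinases and factors upstream of the immediate early genes (ERK, JNK and p38 kinases, SRF, CREB and their partners), 1 fell and 28 did not pass. The one that fell was Map2k6, a kinase that activates p38, at 2.35, 1.86 and 1.89 in WT and 0.748, 0.707 and 0.778 in Mc4r KO libraries. The groups were far apart, and the difference was -1.33 on the log2 scale with a standard error of 0.15 (adjusted p = 0.033, limma). It also passed with the GC content trend removed (adjusted p = 0.0277, limma) and without WT replicate 3 (adjusted p = 0.0125), but not without any other single library (adjusted p from 0.0876 to 0.146) or with the mitochondrial share as a covariate (adjusted p = 0.234). Of 44 other immediate early and feedback genes, such as the Dusp phosphatases and Spry proteins, limma passed 0 on FPKM and 6 with voom on the recovered reads, and 16 had an unadjusted p under 0.05. In the upstream list 3 passed with voom and 9 had an unadjusted p under 0.05, and in the growth arrest list described next 4 and 7 did. Over all genes the shares were 4.58% and 20.9%. The largest differences without overlap were those of Phlda1 (log2 fold change -1.27) and of Gem (-0.97), a small GTPase that inhibits calcium channels, both with an adjusted p of 0.0579 (limma).

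Of 17 genes of the GADD45 and growth arrest response, 1 rose and 16 did not pass. It was Cdkn1a, the inhibitor p21 that binds GADD45 proteins, at 2.42, 3.57 and 5.34 in WT and 14.4, 14.1 and 21.4 in Mc4r KO libraries. All 3 Mc4r KO libraries were far above the WT libraries, with a log2 fold change of 2.15 (adjusted p = 0.0415, limma). It kept an adjusted p under 0.05 without WT replicate 3 (adjusted p = 0.00747, limma) and lost it without any other single library (adjusted p from 0.108 to 0.147) or with the mitochondrial share as a covariate (1.31, adjusted p = 0.244). It too was measured by RT-qPCR in the study. The median log2 fold changes of the 3 lists were 0.03, -0.05 and 0.01, beside -0.011 over all genes tested.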

How the data were processed

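The authors filtered paired reads of 6 libraries, aligned them with HISAT2 2.0.5 to mm10 (versions per the submitters' processing notes), counted them on genes with featureCounts and deposited FPKM for each gene and library, with the gene length in bases and other annotation. Neither the annotation release nor strand use is given in the sources used here. Of the gene identifiers, 99.8% were found among the GENCODE M21 transcripts, which gave the GC content of the longest transcript and the overlaps between genes. Each of the 6 columns of values carries the name of its library.

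The product of FPKM and gene length fell on whole reads, within 0.05 of a whole number, for 100% of the values. The floor of 3 reads covers counting error only. Median-of-ratios factors were 1 for each library, so the deposited FPKM were already scaled in this way. The main test was limma 3.58.1 (R 4.3.3, data.table version 1.17.8) on log2(FPKM + 0.1) with the empirical Bayes trend, over 18035 genes (mean FPKM 0.1 or more), two-sided, with Benjamini-Hochberg adjustment over all of them, without a covariate. The deposited unit is FPKM, and limma on FPKM was planned as the main test in place of the study's count test. Limma voom on the recovered reads was run as an alternative. The fit was tested on simulated data. The study gives 3 animals for each group. Python 3.11.15 and matplotlib 3.10.9 drew the figures.

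The 34 genes, their role groups, the related lists and the cell markers were chosen with earlier results of these data known, so no list was tested. Values in every library are given for genes that passed or did not overlap between groups, the 5 largest changes and the most abundant of each role group. Those of Fos, Junb, Jund, Cebpd, Socs3 and Zfp36 are given in addition, chosen after their values were seen. Of the related lists, genes are named that passed, or that did not overlap and exceeded 0.75 on the log2 scale. Promoters of 26 of the 34 genes were found among RefSeq promoters (GRCm38.p6).

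Alternatives tried were a pseudocount of 1 or 0.01, no filter, a mean FPKM of at least 1, quantile normalization, scaling outside the mitochondrial chromosome, array weights, limma voom on the recovered reads, the mitochondrial share as a covariate, the replicate block, protein-coding genes only, no limit on the fold change, and fits without each library. The removal of the GC trend (lowess, span 0.3) was added after seeing the data.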

Additional observations from a re-analysis of the deposited data

How the results depend on the processing

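Limma called 83 genes over all genes and 1 of the 34 genes. Over all genes the number of calls was 435 with array weights, 317 with voom, 204 over protein-coding genes, 147 at a mean FPKM of at least 1, 49 after quantile normalization, 44 with a pseudocount of 1, 41 with scaling outside the mitochondrial chromosome (16 of them higher, against 57 of 83), 22 without a filter and 2 with the mitochondrial share as a covariate. Among the 34 genes it was 3 with array weights, with voom, over protein-coding genes and without a limit on the fold change, 2 with scaling outside the mitochondrial chromosome, and 0 with the pseudocount of 1, without a filter and with the mitochondrial share, where 9 to 14 had an unadjusted p under 0.05. With the GC trend removed the 1 call among the 34 genes was Sik1 in place of Gadd45b. Among the related genes, 2 were called, and 5 with array weights and voom, 4 at a mean FPKM of at least 1 and over protein-coding genes, 1 after quantile normalization, and 0 without a filter or with the mitochondrial share (29 and 20 at an unadjusted p under 0.05). Without each library in turn, the calls ran from 7 to 726 over all genes, from 0 to 6 among the 34 genes and from 0 to 7 among the related genes, the highest number each time without WT replicate 3. Over all genes, the median was -0.011, and -0.19 with scaling outside the mitochondrial chromosome. The median of the 34 genes was -0.17, and -0.35 under that scaling and with the GC trend removed, -0.29 with the mitochondrial share, -0.040 at a mean FPKM of at least 1 (29 genes), and from -0.25 to -0.047 without each library.

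With the replicate block the calls were 11 over all genes, 0 among the 34 genes (13 at an unadjusted p under 0.05) and 1 among the related genes. The replicate numbers name no shared litter or day, and the deviations of same-numbered libraries correlated at -0.14, 0.0074 and -0.082 over 11297 genes. These values showed no pairing by number, but with 3 libraries for each group they cannot exclude a shared litter or day. Gadd45b, Klf6 and Sik1 kept their direction under all 18 alternatives, and an adjusted p under 0.05 under 6, 7 and 9 of them. Single genes kept their side of the adjusted threshold in 556 of 606 values, lost it in 32 (Gadd45b, Klf6 and Sik1) and gained it in 18 from 11 genes. The cause of these changes was not tested. Depth limits genes with few reads, such as Fosb.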
